A study of Drosophila melanogaster with 2 samples.

Results

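The cytoplasmic ribosomal protein genes of Drosophila melanogaster were examined for binding of the transcription factor toe (twin of eyegone), a Pax-like homeodomain protein that acts in eye development. The members were the protein-coding genes in Ensembl's annotation whose symbol starts with RpL or RpS, which gave 92 of 13968 protein-coding genes. By symbol alone, 54 were counted to the large ribosomal subunit (RpL) and 38 to the small (RpS). Chromatin came from whole adult males of unknown age of the strain toe-GFP, a single transgenic line that stably expresses toe with green fluorescent protein at its C-terminus. It was sheared by sonication and immunoprecipitated with an anti-GFP antibody. There was 1 group with 2 biological replicates, numbered 2 and 3, and no other genotype, sex or treatment to compare with. The labels also name a control experiment, not analysed here. Whole flies mix all tissues, so a weak signal in many cells and a strong signal in few cells cannot be told apart.

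Ribosomal proteins assemble with ribosomal RNA into the large subunit, which forms peptide bonds, and the small subunit, which reads the messenger RNA. Their genes are needed in every growing cell and must be expressed in balance. Loss of 1 copy of many of them gives the Minute flies, which develop slowly and have short bristles. In Drosophila most of these genes start transcription in a run of pyrimidines called the TCT initiator, and several are known to carry the DNA replication-related element, which the factor Dref binds.

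Promoter sequences of 8 members are shown first, so that bound and unbound genes can be set side by side. Each runs from 100 bp before the start site of the canonical transcript through the first 20 bp of the transcript, on the strand of the gene, and comes from the RefSeq copy of the dm6 assembly. Capitals mark 4 words: the TCT initiator (the word TTCTTT, or with other pyrimidines at its start TCCTTT and likewise CTCTTT and also the word CCCTTT, on the gene's strand within 10 bp of the start site), the DNA replication-related element TATCGATA, core promoter motif 1 (GGTCACACT, bound by the factor M1BP) and the Myc-type E-box CACGTG, the last 3 on either strand. RpS27 had the highest signal of all members, RpL34b and RpL34a are a pair of gene copies that were both bound, and RpS5a and RpS5b are a pair of which 1 was bound. RpL28 was strong in each replicate but not in the pooled data, and RpL13A and RpS27A had no region in any list.
RpS27, bound (chr3R:25247495-25247614, minus strand): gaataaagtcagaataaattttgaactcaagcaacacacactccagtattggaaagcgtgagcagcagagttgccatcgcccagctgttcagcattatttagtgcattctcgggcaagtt
RpL34b, bound (chr3R:9401183-9401302, minus strand): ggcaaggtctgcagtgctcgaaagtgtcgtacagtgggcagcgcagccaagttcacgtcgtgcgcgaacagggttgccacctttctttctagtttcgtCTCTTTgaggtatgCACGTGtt
RpL34a, bound (chr3R:26059248-26059367, minus strand): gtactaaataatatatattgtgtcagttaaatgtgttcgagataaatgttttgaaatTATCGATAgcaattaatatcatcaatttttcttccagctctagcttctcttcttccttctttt
RpS5a, bound (chrX:17148245-17148364, minus strand): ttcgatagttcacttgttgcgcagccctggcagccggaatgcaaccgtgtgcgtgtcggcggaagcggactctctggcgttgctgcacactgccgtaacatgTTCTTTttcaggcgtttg
RpS5b, unbound (chr3R:14901544-14901663, minus strand): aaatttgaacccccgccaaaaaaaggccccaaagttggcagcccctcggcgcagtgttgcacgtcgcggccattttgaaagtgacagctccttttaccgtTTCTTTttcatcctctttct
RpL28, unbound (chr3L:3222939-3223058, minus strand): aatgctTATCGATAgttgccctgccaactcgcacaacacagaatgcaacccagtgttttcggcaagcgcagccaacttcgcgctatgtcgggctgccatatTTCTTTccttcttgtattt
RpL13A, unbound (chr3R:5624374-5624493, plus strand): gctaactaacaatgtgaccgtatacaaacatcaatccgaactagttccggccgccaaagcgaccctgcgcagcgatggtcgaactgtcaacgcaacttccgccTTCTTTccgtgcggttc
RpS27A, unbound (chr2L:10408252-10408371, plus strand): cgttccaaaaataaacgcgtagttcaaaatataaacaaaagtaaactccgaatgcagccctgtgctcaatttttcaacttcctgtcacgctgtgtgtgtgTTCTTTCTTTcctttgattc
The initiator stood in capitals in bound RpL34b and RpS5a and in unbound RpS5b, RpL28, RpL13A and RpS27A. It was not found at this start site of bound RpL34a or of RpS27, the member with the highest signal. Counts over all members are given below.

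A gene was called bound when the summit of a reproducible dm6 peak was at most 500 bp from one of its annotated start sites. Of the 92 members, 55 were bound (59.8%, 95% Wilson interval 49.6 to 69.2%), against 19.3% of all protein-coding genes. The large subunit had 33 of 54 genes bound (61.1%, interval 47.8 to 73.0%) and the small subunit 22 of 38 (57.9%, 42.2 to 72.1%). These intervals cover the counting of genes only and overlap widely, and the difference between the subunits was not tested. The choice of genes rests on symbols, and the ribosomal proteins of other names were few. Rack1, a scaffold on the small subunit, was bound (signal 198), and sta, a small subunit protein, was not.

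Genes with more annotated start sites have more chances to lie near a summit, so the share was also set out by their number. Of the 48 members with 1 start site, 24 were bound (50%, 36.4 to 63.6%), against 14.6% of all protein-coding genes with 1 start site. Among the 44 members with more, 31 were bound (70.5%, 55.8 to 81.8%), against 32.4% of all such genes. The members therefore lay above the background in both classes.

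**Figure D1:**
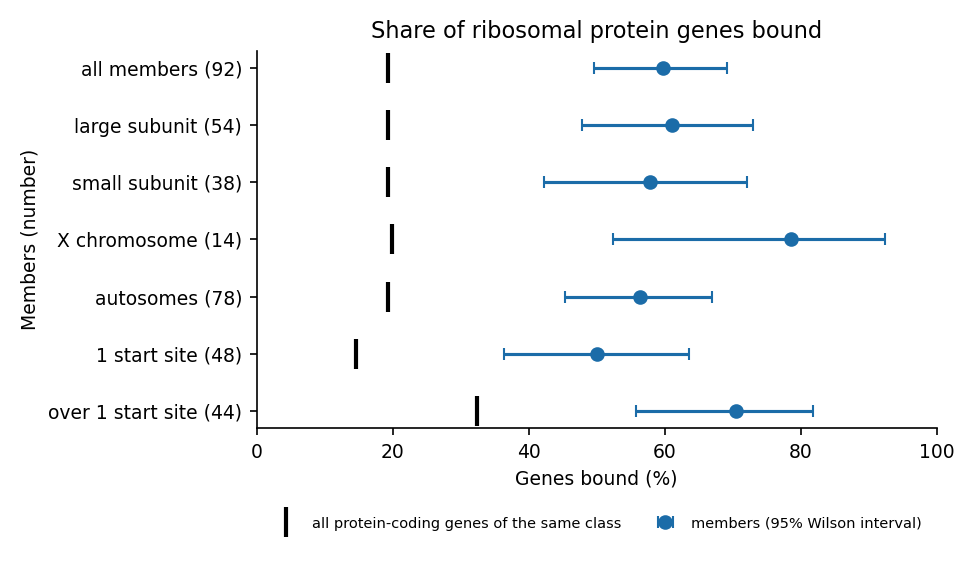
Share of ribosomal protein genes bound (x axis, percent) for all members, by subunit, by chromosome and by number of start sites (y axis, with the number of members). Points are the members with 95% Wilson intervals, and black ticks are all protein-coding genes of the same class (for the subunits, all protein-coding genes). The lower end of every interval lies to the right of its tick, and the intervals of the subunits overlap.

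The signal of a peak is the authors' own value on a scale that no source used here states, and it was compared within a list only. In the reproducible list, signals of bound members ran from 58.5 to 621 with a median of 166, against a median of 135 over the 2701 bound protein-coding genes, the members included. Of the 55 bound members, 15 (27.3%) had a peak among the 500 highest of the list, against 22.8% of all bound genes. No member was among the 50 highest. Signals of the large subunit had a median of 186 and quartiles of 117 and 268, and those of the small subunit a median of 139.8 and quartiles of 93.4 and 213, so the quartile ranges of the subunits overlapped.

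RpS27, a zinc-binding protein of the small subunit, had the highest signal (621, rank 62 of 3469). Its peak lay on chromosome 3R from 25247383 to 25247690, with the summit 20 bp upstream of the start site. In the separate lists of the replicates its region had signals of 379 (rank 60) in replicate 2 and 232 (rank 88) in replicate 3. RpL32, a large subunit protein widely used as a reference transcript in fly work, followed with 609 (rank 66), and 395 (rank 53) and 210.1 (rank 106) in replicates 2 and 3. Both genes stood near the top of either replicate's list.

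Among the 10 highest, RpL34b had 487 (303 and 175 in replicates 2 and 3), and RpS20, a protein of the head of the small subunit, 461 (280.5 and 167). RpL26, at the end of the exit tunnel for the new peptide, had 368 (216 and 150.4), and RpL7 had 363 (223 and 133). The 10 highest also held RpL34a (351, with 206 and 148), RpL13 (319, with 162 and 158) and RpS29, another zinc-binding small subunit protein (314, with 189 and 123). Of these 10 genes 7 code for the large subunit. Ranks within the replicates stayed close: the 10 genes ranked 53 to 419 in replicate 2 and 88 to 357 in replicate 3.

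The 5 bound members with the lowest signal were RpL39 (66.4), RpL22 (65.3), RpS9 and RpS3 (64.6 each) and RpS30 (58.5). RpS3 lies at the entry of the messenger RNA and RpS30 is made as a fusion with a ubiquitin-like protein. RpL22, RpS9, RpS3 and RpS30 were also the 4 bound members whose peak did not reach a q-value under 0.05. RpS30 had signals of 32.9 (rank 3913) in replicate 2 and 14 (rank 17961) in replicate 3, so neither replicate held it among its 3469 strongest regions.

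All 3 proteins of the acidic stalk, which recruits translation factors, had bound genes, with signals of 265 at RpLP0, 154 at RpLP2 and 116 at RpLP1. RpL3 (144) and RpL8 (152), which line the peptidyl transferase centre, were bound, as was RpS6 (114), the substrate of S6 kinase. At RpS6 the summit lay 381 bp upstream of its start site and nearer to that of bys, a ribosome biogenesis gene. RpS12 (206), which acts in the recognition of Minute cells during cell competition, was bound too.

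**Figure D2:**
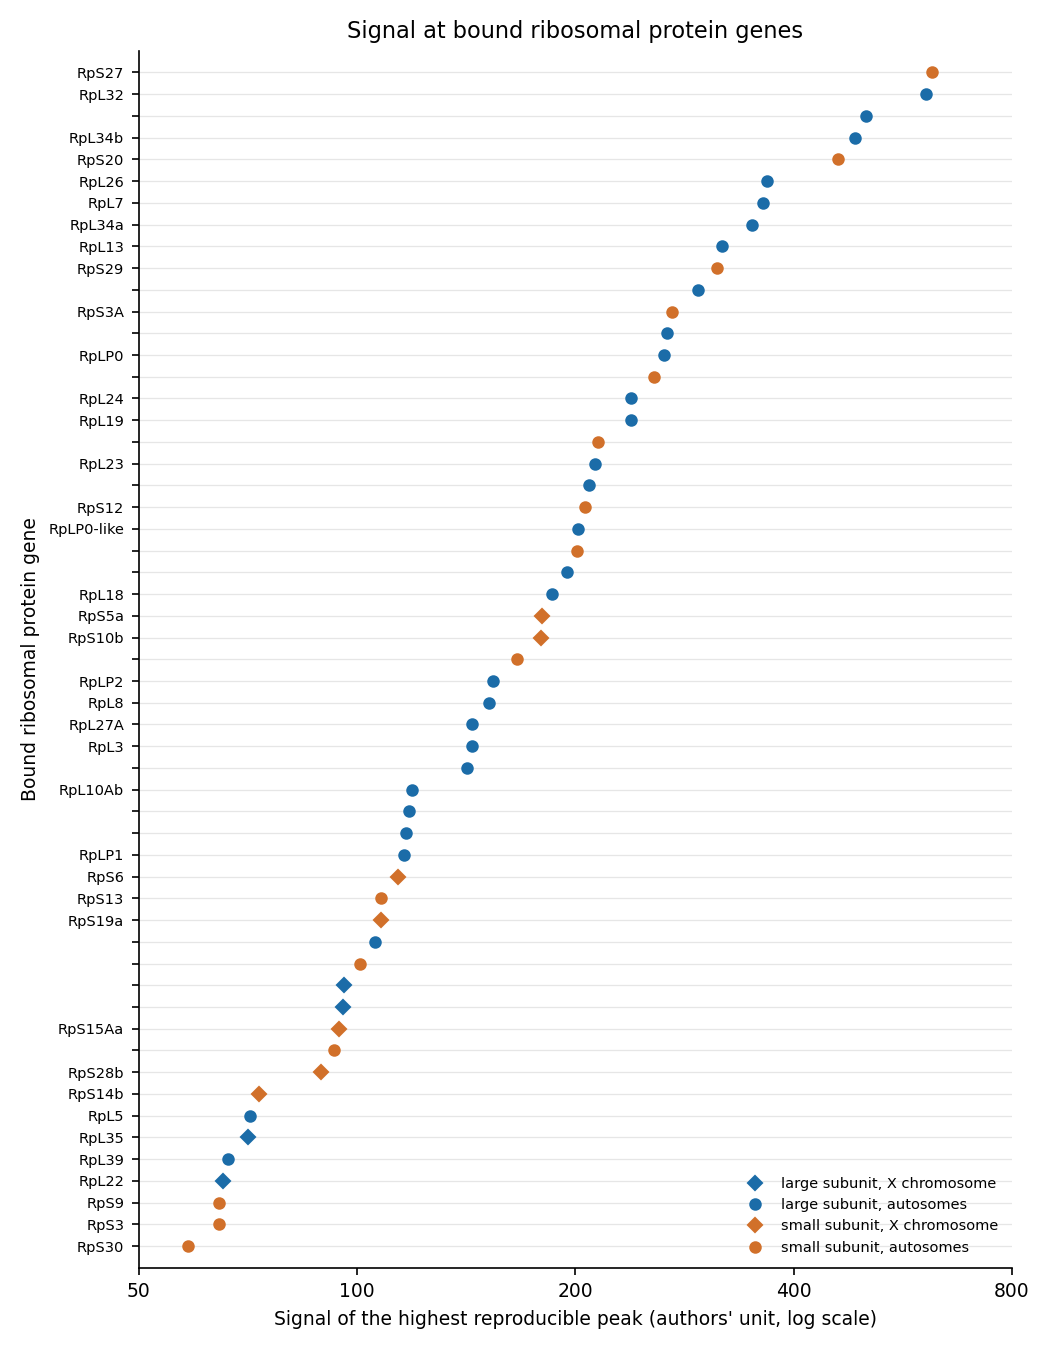
Signal of the highest reproducible peak within 500 bp of a start site (x axis, log scale, authors' unit) at each of the 55 bound members (y axis, ordered by signal), coloured by subunit and named where the text describes them. Diamonds are genes on the X chromosome and circles genes on autosomes. Both colours run over most of the range, from 58.5 at RpS30 to 621 at RpS27, and all diamonds lie at 180.2 or lower.

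Bound members on the X chromosome had a lower median signal than those on autosomes. Males have 1 X, and a link between copy number and signal was not tested. Of the 14 members on X, 11 were bound (78.6%, 52.4 to 92.4%), against 19.9% of all genes on X. On autosomes 44 of 78 were bound (56.4%, 45.4 to 66.9%), against 19.3% of all autosomal genes. The bound members on X had signals from 65.3 to 180.2 with a median of 95.5, and those on autosomes 58.5 to 621 with a median of 202. Over all bound protein-coding genes the medians were 101 on X and 146 on autosomes, so lower values on X were not limited to the members. None of the 11 on X was among the 500 highest peaks, against 9.15% of all bound genes on X, and 15 of the 44 on autosomes were (34.1%), against 25.5% of all bound autosomal genes. With 11 genes, a count of 0 is close to the share on X as a whole. The ranges overlap, and the difference was not tested.

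Summits lay close to the start sites of the members. At 44 of the 55 bound members (80.0%) the summit was upstream of the start site, against 87.1% of all bound protein-coding genes. The median position was -54.0 bp (values below 0 are upstream), against -131 bp over all bound protein-coding genes. It was within 100 bp of the start site at 43 members (78.2%), against 35.2% of all bound genes. A peak that belongs to a neighbour makes such distances longer, so the genes whose own start site was nearest to the summit were taken apart. Of 44 such members 40 (90.9%) had the summit within 100 bp, against 45.5% of 1915 genes. The bound mitochondrial ribosomal protein genes, 30 of 73 genes, had a median position of -158 bp, and 6 of the 30 (20%) had the summit within 100 bp. At 12 of the 30 the gene's own start site was nearest to the summit. Of these 12, 5 (41.7%) had the summit within 100 bp, close to the 45.5% of all such genes. The distances were not tested, since neighbouring genes share peaks.

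**Figure D3:**
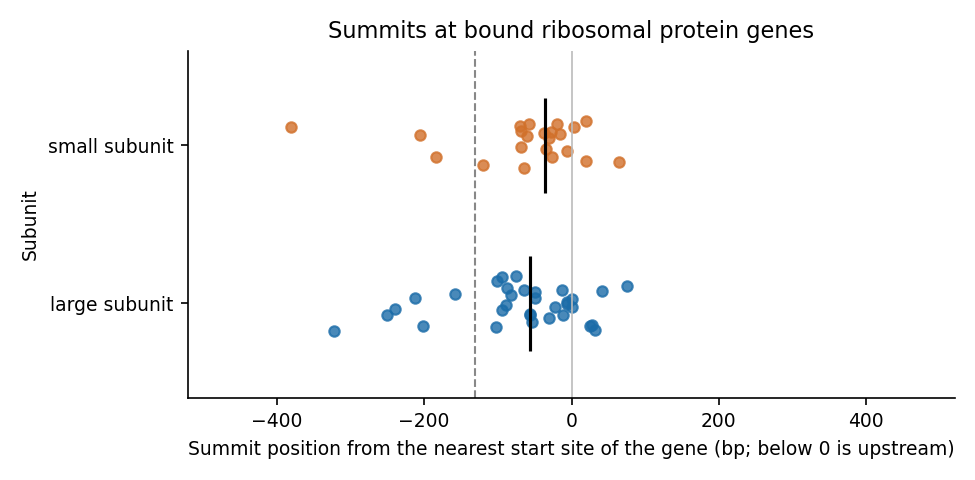
Position of the summit from the nearest start site of the gene in bp (x axis, values below 0 are upstream) at bound members of the large and small subunit (y axis, points spread vertically for sight only). Black bars are the medians, -56.0 and -36.0 bp, and the dashed line is the median of all bound protein-coding genes, -131 bp. Most points of both subunits lie between the dashed line and the start site.

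Many peaks were shared with a neighbour. In all, 60 peaks had a summit in reach of members, and 5 members (RpL10Ab, RpL27A, RpL34b, RpS3A and RpS5a) had 2 peaks each. At 25 of the 55 bound members (45.5%) the summit of the highest peak was also in reach of another protein-coding gene, against 56.8% of all bound protein-coding genes. The member's start site was the nearest in 15 of the 25 cases and the other gene's in 10. Peaks of the latter kind included those of RpL32 (nearest to CG7943), RpS20 (CG17271), RpL13 (Dref), RpL19 (CG3776), RpL23 (CG13531), RpL18 (Neos), RpLP0-like (14-3-3zeta), RpS13 (CSN8) and RpS6 (bys). The 25 shared members had a median signal of 215 and the other 30 a median of 117. Of the bound members on X, only RpS19a and RpS6 were among the shared ones. Members on X had a median signal of 95.5 against 202 on autosomes, so the split by sharing is mixed with that by chromosome. The split by sharing was not made over all bound genes, and the difference was not tested. RpL13 and Dref, whose protein binds the DNA replication-related element, share a single peak with the summit 89 bp upstream of RpL13 and 5 bp from Dref.

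Most pairs of gene copies had 1 bound gene. The 14 pairs compared held 27 genes, since RpS28b stands in a pair with RpS28a and another with RpS28-like. Both genes were bound in 2 pairs, 1 gene in 11 pairs and neither in 1 pair. In the pairs 14 of 27 genes were bound and outside them 41 of 65 members, against 19.3% of all protein-coding genes. Pairs were set by symbol, and protein identity within them ran from 25% to 100%, so some are distant relatives. The pairs bound at both genes were RpL34a and RpL34b, on the same arm and 83.3% identical in protein sequence (351 and 487), and RpLP0 and RpLP0-like, which share 25% of residues (265 and 202). The yeast protein most like RpLP0-like is known as an assembly factor rather than a part of the ribosome.

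In 8 pairs 1 copy lies on X and the other on an autosome, and in 7 of these the X copy was bound and the autosomal copy was not. RpS28b is the X copy for both RpS28a and RpS28-like, so the pairs hold fewer X genes than pairs. Of all members on X, 11 of 14 were bound (78.6%). Every autosomal copy in these pairs has 1 start site, a class with 24 of 48 members and 14.6% of all protein-coding genes bound. The difference between the copies was not tested. RpS5a (X, 180.2) was bound and RpS5b, known for its expression in the germline, was not, although the proteins share 80.7% of residues. The same held for RpS10b (179.6) against RpS10a (75% identical), RpS19a (108) against the germline gene RpS19b (65.8%), and RpS15Aa (94.4) against RpS15Ab (97.7%). It also held for RpS28b (89.3) against RpS28a (82.8%) and RpS28-like (44.6%), and for RpL22 (65.3) against RpL22-like (46.2%), which is known from the testis. Of the autosomal copies, RpS5b, RpS10a, RpS15Ab and RpS19b had no region within 500 bp in the pooled list or in either replicate. RpS28a had a region in replicate 3 only (29.1, rank 3585) and RpS28-like in replicate 2 only (17.3, rank 11333). RpL22-like had weak ones in replicates 2 and 3 (14.3 and 14). The eighth pair, RpL37-1 on X and its autosomal copy RpL37-2, had neither gene bound.

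Pairs on autosomes were 5 in number. RpL7 (363) was bound and RpL7-like was not (34.5% identical), and the same held for RpL24 (239) against RpL24-like (34.8%). RpL10Ab (119) was bound and RpL10Aa was not (63.9%). RpS14a and RpS14b lie 1156 bp apart on X and code for identical proteins (100%). RpS14b was bound (73.2, with 35.2 in replicate 2 and 38.3 in replicate 3), and RpS14a had a weak pooled region (29.6, rank 10881), no region in replicate 2 and 30.4 in replicate 3. Reads from identical stretches cannot be placed on 1 copy, so the difference between RpS14a and RpS14b is uncertain.

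The 37 unbound members fell into those with a weak region and those with none. In the pooled list, which holds 30000 regions, peaks and background together, 64 of 92 members had a summit within 500 bp (69.6%), against 41.9% of all protein-coding genes. Beyond the 55 bound genes these were 9 of the 37 unbound members (24.3%), against 28.0% of all unbound genes. The member just inside the reproducible list was RpS30 (pooled rank 3444, signal 58.5), and those just outside included RpL15 (rank 3641, signal 55.9) and RpL38 (rank 3642, signal 55.8). Further down were RpL21 (40), RpL37-1 (38.3), RpL10Aa (30.7), RpS14a (29.6), RpL40, which is made as a ubiquitin fusion (29), and RpS15 (23.0).

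The other 28 unbound members had no pooled region in reach. Their nearest pooled summit was 907 to 38280 bp away, with a median of 7319 bp. No region in any of the lists lay near 15 of them, among which were RpL6, RpL7-like, RpL11, RpL13A, RpL29, RpL31, RpL37-2, RpL37A, RpS5b, RpS10a, RpS15Ab, RpS19b, RpS24 and RpS27A. They include RpL11, which helps to bring the smallest ribosomal RNA into the large subunit, whereas its partner RpL5 was bound (71.1). RpS27A, which is made as a ubiquitin fusion, had its nearest pooled summit 38280 bp away.

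The remaining 13 members without a pooled region had one in a replicate's own list, and some of these regions were strong. RpL28 had a signal of 223 (rank 217) in replicate 2 and 133 (rank 295) in replicate 3, the same values to 3 digits as RpL7, whose pooled signal was 363. The nearest pooled summit to RpL28 was 13187 bp from its start sites. RpL12 (60.0 and 50.9, ranks 1893 and 1602) was likewise among the 3469 strongest regions of both replicates. In all, 3 unbound members had such regions in both, or 8.11% of the unbound members, against 1.08% of all unbound protein-coding genes. These shares do not start alike. Regions this strong lay near 59.8% and 62.0% of members in replicates 2 and 3, against 21.1% and 19.7% of all protein-coding genes. Of the 55 members with one in replicate 2, 5 had no pooled region, and of the 57 in replicate 3, 6 had none. The matching counts over all protein-coding genes were not made, so whether this was more frequent at members cannot be told.

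In replicate 3 alone, RpS16 had a signal of 123 (rank 358), RpL36 of 82.6 (rank 763) and RpL36A of 57.8 (rank 1323), with no region within 500 bp in replicate 2. RpS26 (83.8, rank 1221) and RpL35A (40, rank 3111) had a region among the strongest of replicate 2 and none in replicate 3. A weaker region was found at RpL24-like in both replicates (30.3 and 18.8) and at RpS2 in replicate 2 (21.7). A region missing from the pooled list was not limited to the members, since 300 of the 3469 strongest regions of replicate 2 (8.65%) and 295 of replicate 3 (8.50%) overlapped no pooled region. These are shares of regions and not of genes, so they do not match the counts of members. The cause of the missing regions was not tested. A member without a reproducible peak was therefore not shown to be free of signal.

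Taken from each replicate alone, about as many members were bound. Among the 3469 strongest regions of replicate 2, 55 members had a summit in reach (59.8%), against 21.1% of all protein-coding genes, and in replicate 3 there were 57 (62.0%), against 19.7%. For 49 members the summits were there in both. The large subunit had 35 and 34 of its 54 genes and the small subunit 20 and 23 of its 38 in replicates 2 and 3. Of the 55 bound members, 50 had such a summit in replicate 2 and 50 in replicate 3. RpS30 was missing in both, RpL35, RpS14b, RpS28b and RpS3 in replicate 2, and RpL22, RpL39, RpL5 and RpS9 in replicate 3. Across the 55 genes the log2 signals of the replicates had a Pearson's r of 0.893 and a Spearman's rho of 0.891. This is a description across genes called bound from the 3469 highest peaks of the pooled list, which was made from the same replicates. A bound member could thus be weak in 1 replicate, as RpL22 was (rank 11433 in replicate 3).

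**Figure D4:**
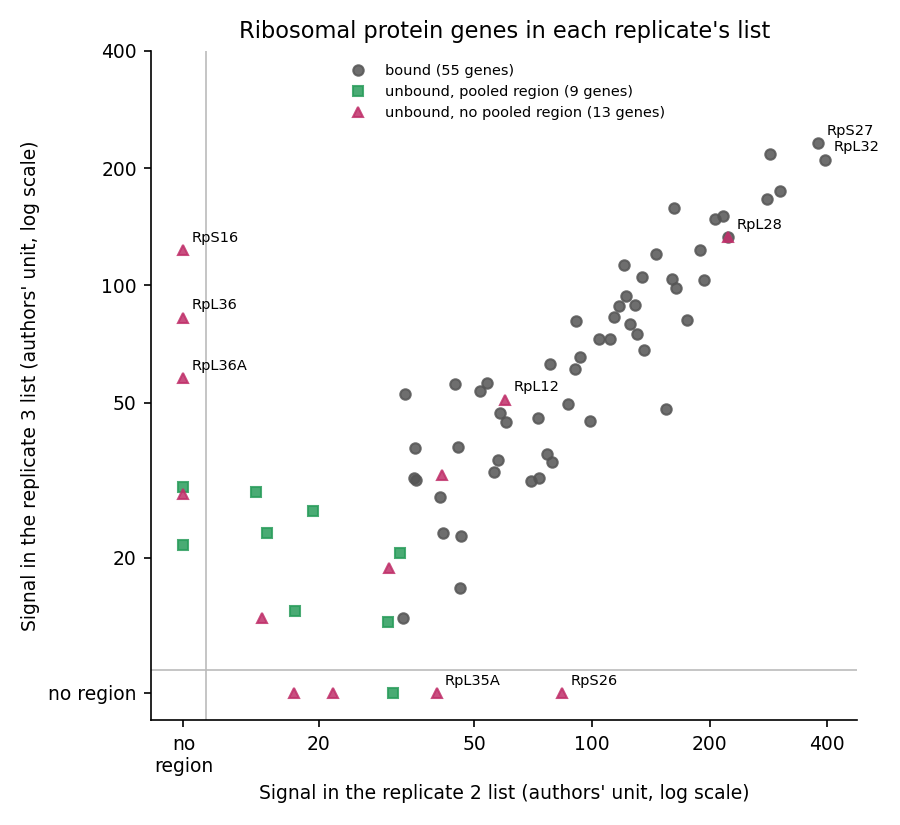
Signal of the strongest region within 500 bp of a start site in the list of replicate 2 (x axis) and of replicate 3 (y axis), log scales, authors' unit. Points beyond the grey lines had no region in that replicate, and 15 members with no region in any list are not drawn. Grey circles are the 55 bound members, green squares the 9 unbound members with a pooled region and red triangles the 13 unbound members without one. RpL28, at 223 and 133, lies among the high grey circles.

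Words of ribosomal protein promoters were common in members, bound or not. The promoter was taken as 250 bp before to 50 bp after the start site of the canonical transcript. The TCT initiator stood within 10 bp of the start site of 42 of 92 members (45.7%, 35.9 to 55.8%), against 1.80% of all protein-coding promoters. It was found in 27 of 55 bound members (49.1%, 36.4 to 61.9%) and 15 of 37 unbound members (40.5%, 26.3 to 56.5%). When any annotated start site could hold it, a reading added after seeing the sequences, the numbers were 41 of 55 (74.5%) and 17 of 37 (45.9%), against 2.73% of all genes. Bound members have more annotated start sites, and the difference was not tested.

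A DNA replication-related element was in the promoter of 28 members (30.4%, 22.0 to 40.5%), against 8.94% of all promoters. Bound members had it in 17 of 55 cases (30.9%) and unbound members in 11 of 37 (29.7%). Within 100 bp of a summit it occurred in 17 of the 60 member peaks (28.3%), against 7.25% of the 2289 peaks at promoters of any gene. The insulator core CGATA, which overlaps that element, was in 70.7% of member promoters and 46.9% of all. Core promoter motif 1 was in 9 members (9.78%, 5.23 to 17.6%), against 5.86% of all promoters. A match of letters is a description and does not show that a factor was bound there.

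The homeodomain core TAATTA was in 11 of 55 bound members (20%), 11 of 37 unbound members (29.7%) and 20% of all promoters. Within 100 bp of the summit it was in 4 of the 60 member peaks (6.67%), against 17.8% of peaks at promoters of any gene. GAGA repeats (GAGAG) were in 17.4% of member promoters against 30.2% of all, and in 6.67% of member peaks against 22.0%. A TATA box (TATAAA between 40 and 15 bp before the start site) was found in 1 member (1.09%), against 7.85% of all promoters. The E-box CAGCTG was in 9.78% of members and 17.9% of all promoters. A pair of 7-base words was searched because earlier results had them frequent at all peaks of these data. Of these, ACAGTGG was in 5.43% of members, against 3.57% of all promoters, and AGTGTTG in 9.78%, against 7.20%. Near summits they were in 3.33% and 8.33% of member peaks, against 5.90% and 10% of peaks at promoters of any gene.

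The Myc-type E-box CACGTG was in 11 members (12.0%, 6.81 to 20.2%), against 4.25% of all promoters. All 11 were counted to the large subunit by symbol: RpL6, RpL7, RpL7-like, RpL11, RpL24, RpL24-like, RpL29, RpL32, RpL34b, RpL35 and RpLP0-like. Of these, RpL7-like, RpL24-like and RpLP0-like share only 34.5%, 34.8% and 25% of residues with RpL7, RpL24 and RpLP0. Their symbols do not show that they are parts of the large subunit. None of the 38 small subunit promoters held it. Of the 11 genes 6 were bound and 5 were not. This difference between the subunits was noticed in the data and was not tested.

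**Figure D5:**
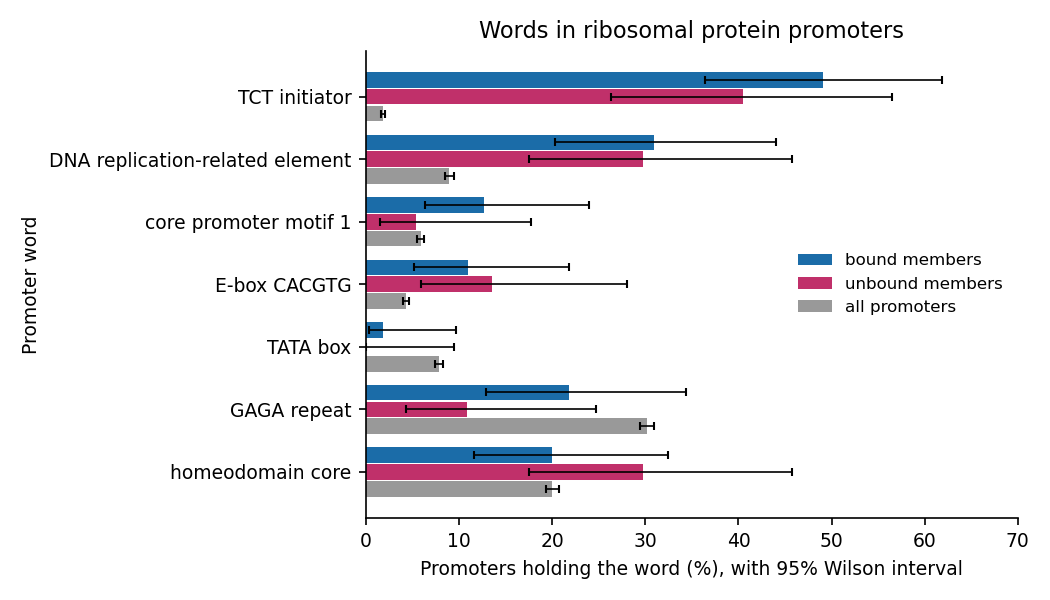
Share of promoters that hold each word (x axis, percent, with 95% Wilson intervals) for the 55 bound members, the 37 unbound members and 13967 protein-coding promoters (y axis, words). The TCT initiator and the DNA replication-related element are well above the grey bars in both bound and unbound members, at 49.1% and 40.5% and at 30.9% and 29.7%.

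Genes that act in ribosome production but code for no ribosomal protein were counted from lists. Of 30 genes listed as ribosome biogenesis factors, 9 were bound (30.0%, 16.7 to 47.9%), an interval that covers the 19.3% of all protein-coding genes. The peak of each of the 9 was also in reach of another gene, such as RpS6 for bys and mRpS17 for Nop60B. The highest were eIF6, which keeps the subunits apart until the large one is mature (1669.6, rank 3), Rrp1 (297) and Nopp140, a chaperone of small nucleolar particles (150.3). In flies Rrp1 codes for a DNA repair endonuclease and was listed in error, and without it 8 of 29 were bound (27.6%). Of 8 genes of RNA polymerase I and its factors 1 was bound (12.5%, 2.24 to 47.1%), an interval that also covers 19.3%. It was Polr1D (181, a peak also near brat). Of 10 factors known to act at ribosomal protein promoters or in growth control 5 were bound (50%, 23.7 to 76.3%), against 19.3% of all protein-coding genes. The list is short and was chosen with earlier results known, and the difference was not tested. Irbp18 (460.2), Dref (319) and pzg (180.4) were the highest, followed by M1BP (167) and Xrp1 (98.1), whose product acts in Minute cells. The peaks of Irbp18, Dref, pzg and M1BP were also in reach of APP-BP1, RpL13, CG12974 and CG8202, in that order. Myc, Max, Mnt, Tbp and Trf2 were not bound.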

How the data were processed

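Per the deposited notes, regions were called on dm6 alignments of each replicate and of both pooled, each together with 1 further file that the notes do not describe, and the reproducible peaks were derived from these lists by the irreproducible discovery rate. What aligned the reads and called the regions was not given in the sources used here. Signal per region is the authors' deposited value on a scale that is not stated. The files have no header, and by the standard order of such files 1 deposited column is taken as the −log10 q-value, used to count peaks under 0.05. Summit offsets are the authors' own. The lists hold no read counts, so depth is unknown. The reproducible list held 3469 peaks, the highest 3469 of the pooled list, and dm3 lists were not used here.

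Genes and start sites are those of Ensembl 115 (BDGP 6.54) on the main chromosomes, leaving out transposable elements. A gene's signal is that of its highest peak within 500 bp. Protein identities were computed from translated canonical coding sequences aligned globally (biopython 1.88, BLOSUM62), as a share of the shorter protein. Words overlapping each other were each counted. The assignment of summits to genes was tested on 200 planted summits. Python 3.11.15, pandas 2.3.3 and scipy 1.17.1 were used. With 1 group, no test was run. The alternatives were other windows, stricter peaks, overlap in place of the summit, 1 start site or 1 gene per peak, members without the ending -like, and each replicate alone.

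Members and lists were chosen with earlier results of these data known. The genes named in full were the 10 highest and 5 lowest bound members, all gene copies, the unbound members with a pooled region or none, and the 3 highest of each other list. The symbols sop, RpSA and Taf1B matched no gene. RpS2, formerly sop, is a member. Values of a few members are not reported here by name, and these members are included in all counts.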

Additional observations from a re-analysis of the deposited data

How the results depend on the processing

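The 55 bound members became 49 with a window of 200 bp, 55 with 1000 bp, 51 with peaks of q under 0.05, 41 in the 1734 strongest peaks, 48 where the peak had to cover a start site, 55 with the outermost start site and 44 where a peak counted for the nearest gene. Against all 13968 protein-coding genes the share stayed higher in each of these, at its lowest 44.6% against 12.7% in the strongest 1734. There the small subunit fell to 14 of 38 genes (36.8%) and all protein-coding genes to 1775, while the large subunit had 27 of 54 (50%). Using 1 replicate alone gave 55 and 57 members, 35 and 34 for the large subunit, 20 and 23 for the small, and 2949 and 2754 protein-coding genes (without replicate 3 and without replicate 2). The median signal moved to 179.6 with the 1000 bp window and was otherwise 166. Without the members whose symbol ends in -like, 54 of 87 were bound. With the TCT initiator sought at any start site, added after seeing the data, 58 in place of 42 members held it. Of 47 alternative values 44 were within 1.5 times the main count or equal to the main median. No paired analysis was possible because there was 1 group. Read depth is unknown, so how far depth limits the weak regions could not be told.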
